A study of Mus musculus with 18 samples.

Results

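Taar6+ cells were compared with reporter-negative cells of the same line, 1 library of each, which are 2 of the 18 libraries of the series. The pair was taken by its labels: the ZsGreen-positive library (replicate 1) and the ZsGreen-negative library (replicate 10) of mice labelled TAAR6-Cre&ZsGreen, at postnatal day 16 to 17. Both carry the Taar6-ires-Cre knock-in, in which Cre is made from the Taar6 transcript through an internal ribosome entry site, and a Cre-dependent ZsGreen reporter, so the control differs in the sort gate and not in genotype. Whether both came from the same animals is not stated. Cre acts permanently, so a cell stays green if Taar6 was transcribed earlier and is not transcribed at the time of the sort. The strain is C57BL/6 per the labels. The other 16 libraries are 7 Taar5+ and 9 reporter-negative libraries of a Taar5-ires-Cre line with an L10-GFP reporter, at postnatal day 11 to 14, and serve below for comparison. For both lines the study's own list of animals names a mixed background and an older age, and the labels were followed here. Line, reporter and age cannot be told apart between the lines.

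The main olfactory epithelium holds olfactory sensory neurons (OSNs), each of which typically settles on 1 receptor gene. Most express an odorant receptor (OR), and a small group expresses a trace amine-associated receptor (TAAR), a family of amine detectors whose genes lie in a single cluster on chromosome 10. Both classes send odor signals through the same pathway, in which the G protein subunit Gnal activates the adenylyl cyclase Adcy3 and cAMP opens the channel of Cnga2, Cnga4 and Cngb1. The epithelium also holds sustentacular support cells, basal stem cells and progenitors, glands, blood vessels and immune cells. In sorted bulk samples, fewer cells of a type and less RNA per cell cannot be told apart.

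Levels are given in TPM, which corrects read numbers for transcript length and expresses each gene per 1000000 transcripts, and differences are Taar6+ minus control on the log2(TPM + 1) scale. With 1 library a side no test is possible, so a gene is called different where it differs at least 4-fold on that scale and its mean over the pair is at least 5 TPM. Sequencing depth is unknown. Genes above 0 numbered 15743 in the Taar6+ library and 16783 in its control, against 5891 to 17653 in the libraries of the Taar5 line. Of 11589 genes with a mean of at least 5 TPM, 134 (1.16%) were called higher in the Taar6+ library and 511 (4.41%) were called lower. Outside the Taar and OR families, OR pseudogenes included, 119 were higher and 84 lower, and 88.3% of all genes differed by less than 2-fold. The median difference of all genes was -0.19, and list medians below are to be read against it. Quantile normalization of the pair moved that median to 0.0089 and gave 195 higher and 367 lower genes.

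The sequences of the Taar genes bear on how their values can be read, since short reads from near-identical copies can be split or lost. The first 60 coding bases are shown for Taar6, Taar9 and the Taar7 genes, which include the 5 highest Taar genes of the Taar6+ library, from GENCODE M21 on GRCm38, all in the single coding exon of a gene on chromosome 10. Capitals mark bases that differ from Taar7b.
Taar6 (chr10:23985587-23985646, minus strand): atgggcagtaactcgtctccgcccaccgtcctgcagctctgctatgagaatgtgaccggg
Taar9 (chr10:24109475-24109534, minus strand): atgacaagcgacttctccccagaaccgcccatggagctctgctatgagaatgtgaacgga
Taar7b (chr10:23999939-23999998, plus strand): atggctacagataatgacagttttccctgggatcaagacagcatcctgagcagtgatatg
Taar7a (chr10:23993422-23993481, minus strand): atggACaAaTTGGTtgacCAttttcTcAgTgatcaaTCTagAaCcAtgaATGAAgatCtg
Taar7d (chr10:24027222-24027281, plus strand): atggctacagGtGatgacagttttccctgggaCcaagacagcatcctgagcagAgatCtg
Taar7e (chr10:24037614-24037673, plus strand): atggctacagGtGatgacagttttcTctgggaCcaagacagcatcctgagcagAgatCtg
Taar7f (chr10:24049510-24049569, plus strand): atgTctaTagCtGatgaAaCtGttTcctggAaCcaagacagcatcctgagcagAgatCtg
Taar6 and Taar9 are shown without marks. Taar7d differed from Taar7b at 5 of these bases, Taar7e at 6, Taar7f at 12 and Taar7a at 25. Over their 1074 coding bases the other Taar7 genes matched Taar7b at 93.1% to 95.0% of positions. For Taar8a, Taar8b and Taar8c all 60 bases were the same, as follows.
Taar8b (chr10:24092235-24092294, minus strand): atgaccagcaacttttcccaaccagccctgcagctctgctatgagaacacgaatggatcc
As a measure of such overlap, the share of a gene's 50-base words that also occur in a transcript of another gene was 0.1% for Taar6, 0% for Taar9, 29.5% to 53.9% for the Taar7 genes and 50.9% to 72.5% for the Taar8 genes.

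Of the 15 Taar genes, 14 were called higher in Taar6+ cells and 1, Taar1, was listed at 0 in both libraries. Taar6, the gene that carries Cre, was highest, at 1576 TPM in the Taar6+ library against 15.8 TPM in its control, a difference of 6.55. Taar9 followed at 1277 against 18.6 TPM (6.02) and Taar7b at 1109 against 9.12 TPM (6.78). Taar7d (1012 against 10.9 TPM) and Taar7a (1006 against 13.4 TPM) were close behind, and the other Taar7 genes, Taar7e (759 against 15.6 TPM) and Taar7f (676 against 10.9 TPM), lay lower. The gene that carries Cre was therefore 1 of 5 Taar genes above 1000 TPM. Taar2, Taar4, Taar5 and Taar3 stood at 902, 637, 375 and 282 TPM, against 16.6, 4.39, 11.97 and 5.62 TPM in the control. Taar8b was at 199 TPM and listed at 0 in the control, and Taar8a (46.4 against 0.23 TPM) and Taar8c (36.2 against 0.86 TPM) were the lowest of those detected. Taar6 in the Taar5 line was at 36.5 to 107 TPM among Taar5+ libraries against 0 to 91.5 TPM among their controls, and those groups overlapped. Neighbouring levels in the Taar6+ order cannot be told apart, since there is 1 library and the Taar7 and Taar8 values depend on how reads were assigned among copies. The summed Taar TPM was 9894 in Taar6+ cells and 134 in the control, a 73.8-fold ratio. In the Taar5 line it was 1517 to 7804 TPM in the 7 Taar5+ libraries and 94.5 to 403 TPM in 8 controls, with the Taar values of Taar5 control replicate 2 left out because 13 of 13 repeat those of replicate 1.

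**Figure D1:**
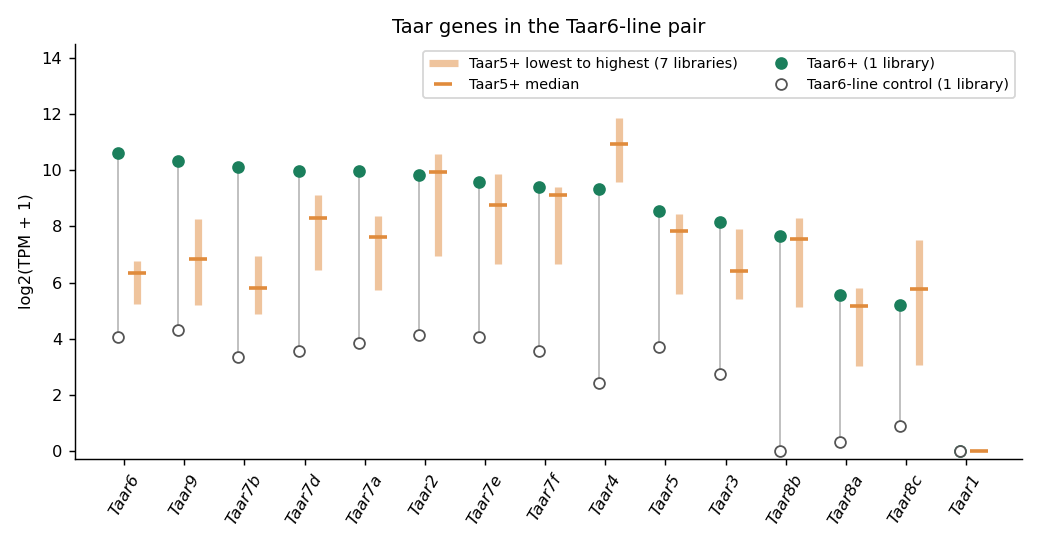
Level of each Taar gene as log2(TPM + 1), ordered by the Taar6+ library. Filled circles are the Taar6+ library, open circles its control, and bars the lowest to highest of 7 Taar5+ libraries with their median. Taar6, Taar9, Taar7b, Taar7d, Taar7a, Taar5 and Taar3, at 282 to 1576 TPM, stand above every Taar5+ library. For Taar5 the values are 375 TPM against 47.0 to 347 TPM, and for Taar3 282 TPM against 41.3 to 239 TPM. Levels differed between the lines for many genes outside this family too, as described below. The shares of Taar5 and Taar3 in the summed Taar TPM lay within the Taar5+ range. Taar4 at 637 TPM stands below every Taar5+ library.

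The makeup of the Taar transcripts lay outside the range of the Taar5+ libraries for 7 of 14 genes, as the plot of shares shows. Taar6 made up 15.9% of the summed Taar TPM in the Taar6+ library and 1.60% ± 0.71 (SD, n = 7) in Taar5+ libraries, where it ranged from 0.55% to 2.92%. Taar7b made up 11.2% against 1.30% ± 0.67 (SD, n = 7), and Taar9 12.9% against 3.14% ± 1.66 (SD, n = 7). Taar7a and Taar7d, at 10.2% each, also lay above all 7 Taar5+ libraries. Taar4 was at the other end, with 6.44% against 39.6% ± 10.4 (SD, n = 7), a range of 19.2% to 49.9%. Taar8c lay below all 7 as well, at 0.37%, but 72.5% of its 50-base words occur in another gene. The remaining 7 genes fell within the Taar5+ range, Taar5 among them, with 3.79% in the Taar6+ library and 3.87% ± 1.12 (SD, n = 7) in the Taar5+ libraries. Taar6, Taar9 and the Taar7 genes together held 74.95% of the Taar6+ library's Taar TPM and 25.7% to 48.1% in Taar5+ libraries. Taar2 to Taar5 held 22.2% and 43.0% to 69.1%. Many genes with near-identical copies were low in both Taar6-line libraries, set beside the Taar5 line, as described below. The Taar7 and Taar8 values enter the sum behind every share, so all shares compared between the lines carry that limit. Without the Taar7 and Taar8 copies, the Taar6 share in Taar6+ cells was 28.8 points above the Taar5+ mean. The exact two-sided permutation test of 1 library against 7 gave p = 0.125 for Taar6, Taar7b, Taar9, Taar7a, Taar7d and Taar4, which is the smallest p that this design allows. Adjusted over 14 genes, those p-values were 0.292.

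**Figure D2:**
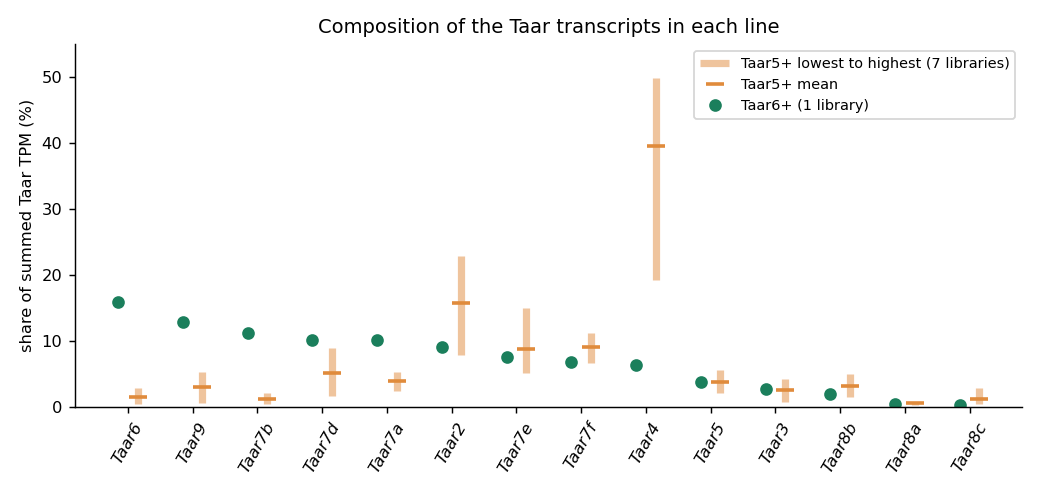
Share of each Taar gene in the summed Taar TPM of a library, in percent. Circles are the Taar6+ library and bars the lowest to highest of 7 Taar5+ libraries with their mean; Taar6, Taar9, Taar7b, Taar7d and Taar7a lie above their bars and Taar4, at 6.44%, lies below its bar.

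Whether the difference from control was unequal between the lines was tested with limma on all 18 libraries, in which the 2 lone libraries are assumed to vary like the rest. An adjusted p under 0.05 was reached by 0 (0%) of 13324 genes, and an unadjusted p under 0.05 by 27. The estimate for Taar6 was 4.27 ± 2.53 (SE), with an adjusted p of 0.99996, as for every Taar gene. It was 5.03 ± 1.56 (SE) for Taar7b and -2.12 ± 1.71 (SE) for Taar4. With standard errors of this size a difference of several log2 units could not be detected for most genes. Where nothing differs, about 1 in 20 genes would reach an unadjusted p under 0.05, and far fewer did. The lone libraries may therefore not vary like the rest, and the p-values of this fit may be off. That no gene passed does not show that the lines are alike.

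OR genes were lower in Taar6+ cells as a family. Their summed TPM over 1097 genes was 1513 in the Taar6+ library and 12685 in the control, or 11.9% of the control level. In the Taar5 line it was 225 to 5525 TPM in Taar5+ libraries and 6174 to 20251 TPM in controls. The Taar6+ library lay inside the Taar5+ range. Its control lay inside the range of the other controls only through Taar5 control replicate 2, at 6174 TPM and with 5891 genes above 0. The rest of those controls had 13477 to 20251 TPM. OR genes above 0 numbered 587 in the Taar6+ library and 1027 in the control. Of the 522 with a mean of at least 5 TPM, 421 were called lower and 1 was called higher. OR genes thus made up 421 of the 511 genes called lower.

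The difference was not even across the OR family. Class I OR genes, the older class that mainly binds water-soluble odorants and is expressed in the dorsal zone, were taken as the 124 genes of the cluster on chromosome 7. Their summed level in Taar6+ cells was 20.5% of the control (392.4 against 1916 TPM), and that of the 973 other OR genes was 10.4% (1121 against 10769 TPM). Of class I genes with a mean of at least 5 TPM, 67.1% (53 of 79) were called lower, and of the others 83.1% (368 of 443). Their share of all OR TPM was therefore 25.9% in Taar6+ cells and 15.1% in the control. The same share in the Taar5 line was 26.1% ± 18.2 (SD, n = 7) in Taar5+ cells and 14.49% ± 6.40 (SD, n = 9) in controls (exact two-sided permutation p = 0.0900), a difference not larger than its spread between libraries. Of the 5 OR genes highest in Taar6+ cells, 4 belong to class I. Olfr571 had 73.6 TPM in the Taar6+ library against 11.4 TPM in its control, 6.46-fold higher and the 1 OR gene called higher. Olfr575 had 19.7 against 9.77 TPM, Olfr557 18.7 against 13.0 TPM and Olfr649 14.51 against 22.1 TPM. Olfr1264, which lies outside that cluster, was among the highest in both, at 14.7 and 69.3 TPM. Olfr571 ranged from 0 to 19.6 TPM in Taar5+ cells and from 0 to 53.3 TPM in the controls of that line. The OR genes highest in the control, Olfr15, Olfr1507, Olfr536, Olfr1264 and Olfr124, were 4.70-fold to 23.5-fold lower in Taar6+ cells.

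**Figure D3:**
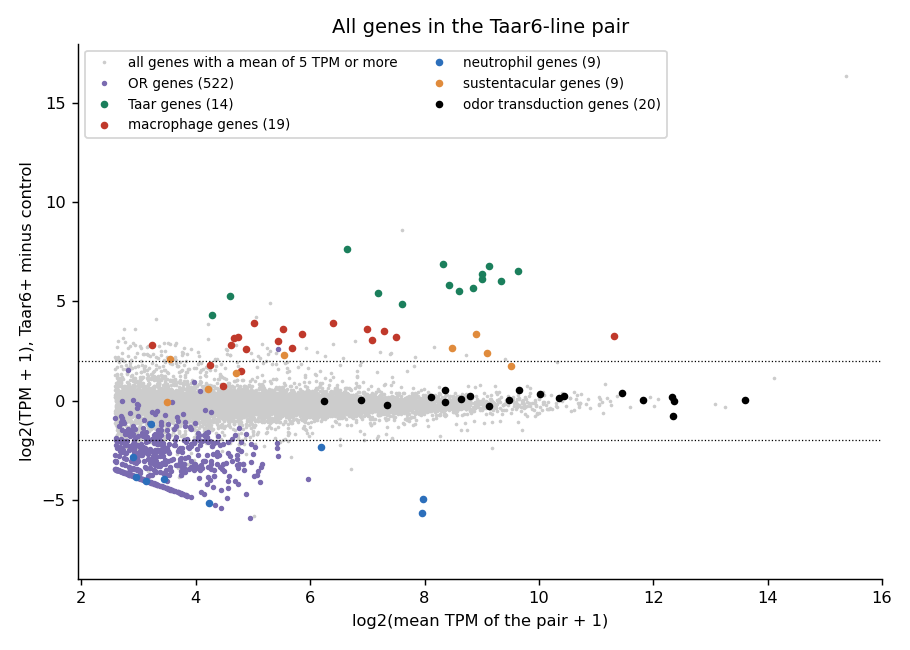
Difference between the libraries of the Taar6-line pair against mean level, for 11589 genes with a mean of at least 5 TPM; dotted lines mark the 4-fold limits. The 14 Taar genes lie above the upper line, most OR genes lie below 0, transduction genes lie along 0, and the single point near the top right is Mir2861 (84365 TPM against 0).

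The genes of the odor transduction pathway were at like levels in both libraries. None of its 20 listed genes with a mean of at least 5 TPM differed by 2-fold, and their median difference was 0.06. Gnal had 3169 TPM in the Taar6+ library against 2416 TPM in its control, Adcy3 1358 and 1249 TPM, Cnga2 1505 and 1277 TPM, and the chloride channel gene Ano2 481 and 404 TPM. Ric8b, a chaperone of the G protein subunit, had 938 and 660 TPM, and Rtp1, which brings ORs to the cell surface, had 1149 and 925 TPM. Omp, the marker of mature OSNs, had 12534 and 12514 TPM, a difference of 0.00 that became -2.05 under quantile normalization, while no other gene of the list passed 1 under any scaling. The lowest difference of the list was that of Stoml3, a stomatin-like protein of olfactory cilia, with 3807 against 6573 TPM (-0.79). Stoml3 was also lower in Taar5+ cells, by 1.42 ± 0.24 (SE) with an adjusted p of 0.0099 (limma). The lists for mature OSNs (14 genes, median 0.21), cilia (21 genes, -0.15) and the unfolded protein response (16 genes, -0.07) likewise held 0 genes past 2-fold.

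Genes of younger stages of the OSN lineage mostly had lower values in Taar6+ cells, though few passed 4-fold, with 0 of 12 immature OSN genes and 1 of 11 progenitor genes called lower. At a 2-fold limit, 8.63% of all 11589 genes were lower and 3.03% higher. Of 12 genes of immature OSNs, 6 were at least 2-fold lower and 0 at least 2-fold higher, with a median difference of -0.91. Gap43, a growth cone protein, had 668 against 973 TPM, Gng8, a G protein subunit of immature OSNs, 37.4 against 144 TPM, and Nhlh2 17.01 against 64.9 TPM. Dcx, a microtubule protein of young neurons, and Hdac9, a histone deacetylase, had the opposite sign, with 207 against 175 TPM and 49.0 against 39.3 TPM. Of 11 progenitor genes with a mean of at least 5 TPM, all 11 had a lower level in Taar6+ cells, 8 by at least 2-fold, with a median of -1.26. The proneural factor Neurod1 had 10.2 against 52.0 TPM, the transcription factor Sox11 57.4 against 187 TPM and the proliferation marker Mki67 4.62 against 13.5 TPM. Markers of horizontal basal stem cells were mixed. The keratin Krt14 (4.34 against 21.1 TPM) was called lower and Krt5 had 9.89 against 41.6 TPM, while Krt15 had 9.87 against 6.45 TPM and Icam1 5.25 against 5.30 TPM. Within the Taar5 line, 0 of 11 progenitor genes and 0 of 12 immature genes had an adjusted p under 0.05 (limma), with medians of -0.58 and -0.23.

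**Figure D4:**
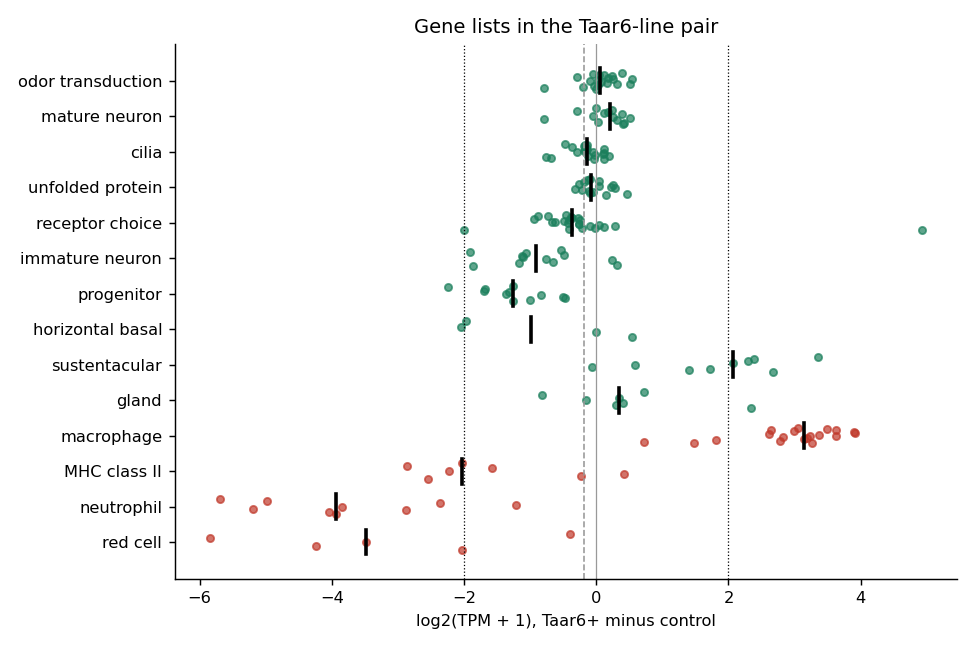
Difference of each gene (points) and median (black bars) by gene list, for genes with a mean of at least 5 TPM; green lists were set with the rest of the design and red lists were set after the values were seen. The dashed line is the median of all genes, -0.19, and dotted lines are the 4-fold limits; transduction genes centre at 0.06, progenitor genes at -1.26, sustentacular genes at 2.07 and macrophage genes at 3.15.

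Markers of other cell types also differed between the 2 libraries, in both directions. Of 9 sustentacular genes, 5 were called higher in Taar6+ cells, among them Cyp2g1, a cytochrome P450 of olfactory mucosa (867 against 84.1 TPM, or 10.3-fold), and Ugt2a1, an olfactory glucuronosyltransferase (615 against 95.9 TPM, with 97.02% of its words in another gene). The list summed to 3677 TPM in the Taar6+ library against 749 TPM in its control, both inside the range of the Taar5+ libraries, 253 to 17297 TPM. Genes of macrophages and microglia were higher as well. On a list of 21 set after the values were seen, 16 of 19 with a mean of at least 5 TPM were called higher and 0 lower. Among them, complement C1qb had 288 against 24.7 TPM, C1qc 236 against 18.3 TPM, the lipid receptor Trem2 59.5 against 3.07 TPM, Fcrls 158 against 9.54 TPM, Mpeg1 105 against 9.20 TPM, Ms4a7 83.7 against 5.86 TPM and the lipid carrier Apoe 4594 against 475 TPM. That list summed to 6555 TPM in Taar6+ cells, above all 7 Taar5+ libraries (47.0 to 1898 TPM) and all 9 Taar5-line controls (3.67 to 2678 TPM), and to 691 TPM in the Taar6-line control. Apoe alone gave 4594 of the 6555 TPM. As the list was set after the values were seen, its place above those libraries is a description and no separate support. Within the Taar5 line the limma estimates had the other sign and did not pass the test, with -2.39 ± 1.12 (SE) for C1qb and -1.46 ± 1.01 (SE) for C1qc (adjusted p of 0.69 and 0.92).

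Neutrophil, MHC class II and red cell genes mostly went the other way, on 3 lists that were all set after the values were seen. The list of immune and blood genes that was set with the rest of the design was mixed. Of its 11 genes with a mean of at least 5 TPM, 5 were called higher and 3 lower, with a median of 0.59. The directions of the later lists are therefore a description and no separate support. Of 9 neutrophil genes, 8 were called lower in Taar6+ cells, led by the calcium-binding proteins S100a8 (8.48 against 489 TPM) and S100a9 (14.4 against 483 TPM) and with the cytokine Il1b at 22.8 against 121 TPM. Of 7 MHC class II genes 4 were called lower, with H2-Ab1 at 11.3 against 88.0 TPM and the invariant chain Cd74 at 31.3 against 151 TPM. Of 5 red cell genes 4 were lower. Hba-a2 had 0.11 against 62.8 TPM, but 86.9% of its 50-base words occur in another gene, and its copy Hba-a1 had 10.3 against 13.8 TPM. The neutrophil list summed to 52.1 TPM in the Taar6+ library against 1209 TPM in its control, inside the ranges of Taar5+ cells (0.12 to 116 TPM) and Taar5-line controls (0.60 to 2721 TPM). Together, macrophage and sustentacular genes were 21 of the 119 genes outside the receptor families that were called higher, and neutrophil, MHC class II and red cell genes were 16 of the 84 called lower. The part of these cells in the other differences was not tested.

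Outside the receptor families and these lists, the largest differences included a transcription factor and a guanylyl cyclase subunit. Tbr1, a T-box transcription factor of cortical and olfactory bulb neurons, had 75.5 TPM in the Taar6+ library against 1.51 TPM in its control (4.93). In the Taar5 line it had 1.97 to 13.8 TPM among Taar5+ libraries against 0 to 3.30 TPM among their controls, and the groups overlapped in that range. The Taar5-line difference was 2.69 ± 0.46 (SE), with an adjusted p of 0.0099 (limma). The Taar6+ value lay above all 7 Taar5+ values. Gucy1b2, the subunit of a soluble guanylyl cyclase known from a subset of Trpc2-positive cells of the main epithelium, had 61.9 against 2.39 TPM (4.21), while the entry for Trpc2, which shares 98.3% of its words with another gene, had 16.2 against 24.6 TPM. In Taar5+ cells Gucy1b2 had 0 to 15.4 TPM and its controls had 0 to 25.9 TPM (0.84 ± 0.77 SE, adjusted p = 0.95, limma). Among the 10 lower genes named by size of difference, those that mark none of those blood and immune cells were Crabp1, a retinoic acid binding protein (183 against 972 TPM), the histone gene Hist1h4i (6.78 against 49.8 TPM) and the neuropeptide gene Grp (6.97 against 44.8 TPM). Tshz1, a zinc finger factor, had 48.2 against 197 TPM (-2.01).

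Lists of genes that act in receptor choice, axon targeting and activity held few called genes. Of 24 receptor choice genes, 20 had a difference below 0 and 18 one below the median of all genes, with a median of -0.37. Lhx2, a homeodomain factor needed for OR expression, had 561 against 774 TPM, its cofactor Ldb1 205 against 379 TPM and Emx2, another homeodomain factor, 89.3 against 173 TPM. Tbr1 and Tshz1, which are on this list, were the 2 genes past 4-fold. Of 24 axon genes 0 were past 4-fold and 2 were at least 2-fold lower, the adhesion genes Pcdh10 (58.9 against 172 TPM) and Nrcam (5.10 against 11.4 TPM). The axon guidance ligand Sema7a had 176 against 348 TPM. Kirrel2, an adhesion gene set by activity, had 999 against 1146 TPM, and the guidance receptor Nrp2 144 against 86.2 TPM. Of 13 activity genes 12 were below 0 and 10 below the median of all genes, with a median of -0.33, and 0 differed by 2-fold. Among the zone markers, Nfia of the ventral zone had 4.18 against 12.05 TPM and Ncam2 136 against 105 TPM. The 16 presynaptic genes had a median of -0.09 and 0 past 2-fold.

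The RefSeq promoter window of Tbr1 (GRCm38.p6, chr2:61804203-61804502, plus strand, from 250 bases before to 50 after the start) is shown with the homeodomain core motif TAATTA in capitals, since Tbr1 had the largest positive difference of the pair outside the Taar genes and the small RNA entries.
Tbr1: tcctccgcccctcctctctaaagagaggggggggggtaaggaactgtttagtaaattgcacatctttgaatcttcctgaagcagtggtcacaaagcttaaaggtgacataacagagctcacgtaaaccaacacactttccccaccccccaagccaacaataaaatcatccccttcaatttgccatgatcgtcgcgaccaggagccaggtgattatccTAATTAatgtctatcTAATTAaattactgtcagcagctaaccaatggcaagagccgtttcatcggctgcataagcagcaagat
TAATTA, which reads the same on both strands, occurs in 5.29% of 32851 promoter windows of this length, and in 1 of 11 windows of Taar genes. A match describes the letters and not a bound site.

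Psmd14, a proteasome lid subunit, is the neighbour of Tbr1 on chromosome 2 (Psmd14 at 61711694 to 61800376 and Tbr1 at 61802930 to 61814114, both GRCm38). It had 700 TPM in the Taar6+ library against 142 TPM in its control, a difference of 2.29, and was the 1 gene called higher of 37 proteasome genes, whose median difference was -0.25. In the Taar5 line it had 260 to 1171 TPM among Taar5+ libraries against 138 to 422 TPM among their controls, 1.83 ± 0.29 (SE) with an adjusted p of 0.0040 (limma). Tank, on the other side of Psmd14, had 42.9 and 40.0 TPM. Of 7 genes listed as neighbours of the Taar cluster, 4 had a mean of at least 5 TPM and 0 of these were past 4-fold. Stx7 had 140 and 158 TPM, Slc18b1 12.8 and 17.5 TPM, Moxd1 10.9 and 16.1 TPM, and Eya4 7.61 and 3.03 TPM. Vnn3 was at 1.71 TPM in the Taar6+ library and listed at 0 in the control.

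Of the 12502 genes tested within the Taar5 line, limma called 18 (0.144%) higher and 3 (0.024%) lower in Taar5+ cells, and these were followed into the pair. Fam19a4, which encodes a secreted chemokine-like protein, had 55.6 against 11.9 TPM in the Taar6-line pair (2.13). The inorganic pyrophosphatase Ppa1 had 1108 against 663 TPM (0.74), a smaller difference than the 2.34 ± 0.25 (SE) of the Taar5 line. Nqo1, a quinone reductase of dorsal zone OSNs, was lower in both lines, with 440 against 1226 TPM in the pair (-1.48) and -2.48 ± 0.31 (SE) in the Taar5 line. Acsm4, another dorsal zone gene, was higher in both, with 582 against 362 TPM (0.69) and 1.53 ± 0.26 (SE). Pcp4l1, a calmodulin-binding protein, was higher in Taar5+ cells (1.38 ± 0.26 SE) and had 1480 against 1855 TPM in the pair (-0.33). Of the 119 genes called higher outside the receptor families, 73 could be tested in the Taar5 line. There 34 of them, or 46.6%, were higher in Taar5+ cells, against 51.4% of all genes tested, and 3 passed the test, Tbr1, Psmd14 and Fam19a4. Of 65 testable genes called lower, 51, or 78.5%, were lower in Taar5+ cells, against 48.6% of all genes tested, and 0 passed the test. Of the 12 higher genes named by size of difference, 7 could be tested there and 3 had the same sign. Of the 10 lower genes so named, 10 could be tested and 9 had the same sign.

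2 small RNA entries together held 10.9% of the summed TPM of the Taar6+ library and 1.11% in its control. Their share of the reads is not known. Mir2861 had 84365 TPM, or 8.44% of the summed TPM. It was listed at 0 in the control and in all 16 libraries of the Taar5 line. Mir682 had 24200 TPM in the Taar6+ library against 11150 TPM in its control and was listed at 0 in the Taar5 line. Their RefSeq hairpins (GRCm38.p6) are shown with the mature part in capitals, because their letters also occur in longer genes.
Mir2861 (chr2:32712807-32712888, minus strand): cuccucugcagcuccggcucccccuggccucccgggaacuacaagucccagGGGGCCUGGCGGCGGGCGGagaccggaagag
Mir682 (chr13:75645046-75645141, plus strand): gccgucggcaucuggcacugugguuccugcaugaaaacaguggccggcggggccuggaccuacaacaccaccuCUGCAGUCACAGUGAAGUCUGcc
All 82 bases of the Mir2861 hairpin occur in a transcript of Cdk9, a kinase gene with 57.6 against 89.7 TPM. Of the 96 bases of the Mir682 hairpin, 95 match the ribosomal protein gene Rpl37a (12.9 against 5.44 TPM) and 96 the processed pseudogene Gm4149. TPM divides reads by length, and for such short entries few reads can give large values. Another entry, the small nucleolar RNA Snord22, had 388 TPM and was listed at 0 in the control. With the 2 miRNA entries removed and the TPM rescaled, the median difference of all genes moved from -0.19 to -0.05, and 160 genes were called higher and 478 lower.

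Many genes with near-identical copies were low in both libraries of the pair, set beside the Taar5 line. Of 2990 genes whose Taar5-line median reached 50 TPM, 29 were under 1 TPM in both Taar6-line libraries, and 26 of these 29 share more than 25% of their 50-base words with another gene. The share of genes under 1 TPM in both was 0.147% (2 of 1359) where no word is shared and 21.2% (14 of 66) where over 75% are. The median level in the first class was 86.2% of the Taar5-line median in the Taar6+ library and 97.1% in its control, and in the last class 23.4% and 30.1%. Ppia, the cyclophilin A gene, was listed at 0 in both libraries and had 971 to 1805 TPM in the Taar5 line. Gapdh, with 203 processed pseudogenes in the annotation, had 1.43 and 6.06 TPM against 436 to 1222 TPM, and the tubulin gene Tuba1b had 21.7 and 30.8 TPM against 693 to 1967 TPM. Within the pair, the median difference was -0.18 where no word is shared and -0.22 where over 75% are. Over all classes of sharing it lay from -0.32 to -0.17. On a list of 84 ribosomal protein genes, set after the values were seen, 18 were listed at 0 in the Taar6+ library and 8 in the control, and of 58 with a mean of at least 5 TPM, 3 were called lower and 0 higher, with a median difference of -0.64. Tpt1, a translationally controlled protein gene, had 9.08 against 29.97 TPM. How reads with several matches were treated in each line is not given in the sources used here, and its part was not tested.

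**Figure D5:**
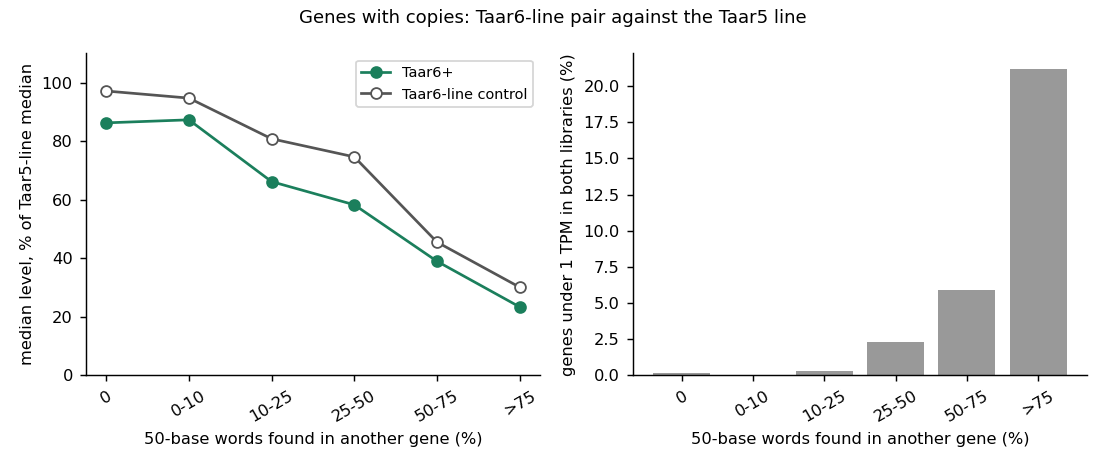
Left, median level of genes in each Taar6-line library as a percent of their median over the 16 Taar5-line libraries, by the percent of a gene's 50-base words found in another gene. Right, percent of those genes under 1 TPM in both Taar6-line libraries, which goes from 0.147% with no shared word to 21.2% above 75%.

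Among genes with few copies the lines differed too. Of the 1359 genes with no shared word described above, 146 had both Taar6-line libraries above every Taar5-line library. For 85 both lay below every one. Those genes were chosen by their Taar5-line median. Of 11589 genes with a mean of at least 5 TPM in the pair, with or without copies, 3066 (26.5%) lay above and 384 below. That limit is set on the pair's own level and so favours genes that are high in the pair. The counts above and below therefore cannot be weighed against each other. The genes named next are examples picked after their values were seen. The stress-responsive factor Atf5, which acts in receptor gene choice, had 3747 and 4492 TPM in the pair and 193 to 898 TPM in the Taar5 line. Ebf3, a transcription factor of OSNs, had 486 and 587 TPM against 8.63 to 77.2 TPM. S100a5, an activity-dependent gene of OSNs, had 8716 and 10913 TPM against 11850 to 102164 TPM. Within the pair, Atf5, Ebf3 and S100a5 differed by less than 2-fold.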

How the data were processed

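FACS-sorted cells of the mouse main olfactory epithelium were profiled by Smart-seq2, which amplifies cDNA by PCR without molecular identifiers. The authors deposited TPM for all 18 libraries in 1 table. Per the submitters' processing notes and the methods, reads were trimmed with Trimmomatic 0.36, mapped to mm10 (GRCm38) with HISAT2 2.1.0 and quantified with Cufflinks 2.2.1; the annotation and the handling of reads with several matches are not given in the sources used here. TPM keep no depth, so no counting error can be given, and the p-values of the Taar5 line measure the spread between its libraries, which may be technical.

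Values of the 488 repeated rows were summed to 23359 symbols. Differences were taken on log2(TPM + 1), which understates changes of low genes, with a fold limit of 4 and a mean of at least 5 TPM. The Taar5 line (16 libraries) and the difference between lines (18 libraries) were fitted with limma 3.58.1 in R 4.3.3 (trend, Benjamini-Hochberg over all genes that reached 1 TPM in 7 or more libraries, threshold 0.05), a step tested on simulated data. Shares were compared by exact permutation in Python 3.11.15. Words of 50 bases were counted in GENCODE M21 transcripts, where 92.9% of symbols were found. Named genes were the Taar genes, list genes, the 10 largest rises and falls with a mean of at least 20 TPM, also among genes above 0 in both libraries, and the 5 highest OR genes of each library; Psmd14, Tank, Tpt1, Atf5, Ebf3, S100a5, Cdk9, Rpl37a, Gm4149, Ppia, Gapdh and Tuba1b were picked beyond these or from the lists after their values were seen. Members and lists were chosen with earlier results of these data known.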

Additional observations from a re-analysis of the deposited data

Results flagged for a closer look

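In the comparison groups of the Taar5 line, 2 of 20 groups of values held a library far from the others, where chance gives about 1 in 20. The summed OR TPM of Taar5+ replicate 5 was 5525, against 225 to 1999 in the other Taar5+ libraries, so the Taar6+ value of 1513 lies within the range of those others as well. The summed OR TPM of Taar5 control replicate 2 was 6174, against 13477 to 20251 in the other controls of that line; without it, the Taar6-line control at 12685 lies below that range.

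2 genes were higher in every Taar5+ library than in any control of that line and had the opposite sign in the Taar6-line pair. In limma the difference between the lines was -2.46 ± 0.90 (SE) for Rpl10a and -2.06 ± 0.98 (SE) for Vwf, and neither passed (adjusted p = 0.99996 for both). Rpl10a was higher in all Taar5+ libraries than in all controls (2.08 on the log2 scale) and differed by -0.39 in the pair. There it was listed at 0 in Taar6+ cells and had 0.31 TPM in the control, and 62.6% of its 50-base words occur in another gene. The Taar5 line carries an L10-GFP reporter and the Taar6 line a ZsGreen reporter. The part of L10-GFP transcripts in the Rpl10a values of Taar5+ cells was not tested. The endothelial gene Vwf differed by 1.75 in the Taar5 line and by -0.31 in the pair, at 2.26 and 3.04 TPM.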

How the results depend on the processing

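With a pseudocount of 10 in place of 1, 45 genes were called higher and 39 lower in the Taar6+ library, in place of 134 and 511. A mean of at least 50 TPM left 38 and 8, a mean of at least 1 TPM or no filter called 845 lower, and a limit of 2-fold called 351 higher and 1000 lower. These follow from the settings' own construction. With the Taar5-line controls in place of the line's own control, 2432 genes were called higher, and the cause was not tested. The other settings gave 111 to 195 higher (10 settings) and 367 to 578 lower (9 settings). The summed Taar difference kept its sign in all 5 alternatives (5.71 to 6.35) and the summed OR difference in all 6 (-3.25 to -2.92). Rescaling without the miRNA entries and leaving out copies or other-cell lists were added after the data were seen. The Taar6 share differed by 14.2 to 28.8 points over 9 alternatives (exact permutation p = 0.125 to 0.143).

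Between the lines, limma called 1 gene with a pseudocount of 0.1 (Hist1h2bh), 2 with a pseudocount of 10 (Mpeg1 and Stab1) and 463 of 19461 with no filter on low values, against 0 as reported and 0 to 0 without each Taar5-line library; the cause was not tested. The replicate block called 0 genes (45 unadjusted).

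Of the genes named in the pair, 1 passed limma in the same direction in the Taar5 line (Tbr1), and 1 to 2 did without each library, with 2 without Taar5+ replicate 5. With the replicate block it was 0, with an adjusted p of 0.136 for Tbr1 and 0.122 for Fam19a4. Deviations of same-numbered libraries correlated at 0.14 to 0.25 in 5 pairs and at -0.0066 and 0.023 in the other two, and as the labels name no shared animal or batch, the numbers were not taken to pair them, and the Taar6-line pair shares no number. Fam19a4 lost its call in 9 of 20 alternatives, Stoml3 in 2 and Acsm4 in 1, while Nqo1, Ppa1 and Psmd14 passed in all 20. With 1 library a side and no depth, no difference within the pair has a replicate check.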
